A study of Mus musculus with 8 samples.

Results

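A set of 9 genes of hepatic glucose handling that respond to fasting and insulin was followed in Rap1-/- and wild-type liver: Pck1, G6pc, Tat, Irs2, Foxo1, Igfbp1, Pdk4, Ppp1r3c and Slc2a2. Every non-control probe whose accession belongs to 1 of these symbols was taken, which gave 10 probes for 9 genes, of 55681 probes and 19752 named genes on the array. Foxo1 was read by 2 probes and each other gene by 1. The genes were picked for their known function, with earlier results of these data known.

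Gene expression was profiled in liver of 4 Rap1-/- mice and 4 wild-type mice, 1 mouse per array, on single-colour (Cy3) Agilent arrays. Rap1-/- mice lack Terf2ip, which encodes the telomere-binding protein RAP1, in the whole body from early development, after recombination of a floxed allele by Cre driven from the adenovirus EIIa promoter. All mice were 10 weeks old and of mixed C57BL6 and 129SV background. The labels give neither sex, feeding state nor hour of collection. The study kept its mice on standard chow unless a high-fat diet is named and measured Pepck (Pck1) and G6Pase (G6pc) by qPCR in livers of fed and of fasted young females. It also describes expression profiling of young female livers with no feeding state given, and of young female livers after a day of fasting, and the labels do not say which of these the 8 arrays are. The first question put to the arrays was therefore where each liver stood on a range from fed to fasted, and the second whether the genotypes differed.

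In the fasted liver, glucagon and glucocorticoids raise the enzymes that make glucose from lactate, glycerol and amino acids. After a meal, insulin signals through its receptor substrates and the kinase AKT, which sends the transcription factor FOXO1 out of the nucleus and so lowers the same enzymes. Pck1, G6pc, Igfbp1, Irs2, Pdk4 and Tat are textbook genes that rise with fasting. Transcripts of this kind turn over quickly, so they also report the last hours before a liver is collected.

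The 250 bases before the annotated start of each gene (RefSeq, GRCm38.p6) were searched on both strands for short motifs of these pathways. The core of the insulin response element, CAAAACA, was present before 3 of the 9 genes and before 5.56% of 32851 windows of the same length. It began at -37 from the start of Irs2, at -108 from that of Igfbp1 and at -174 from that of G6pc. The core of the cyclic AMP response element, TGACG, was present before 1 of the 9 genes, Pck1, at -90, and before 17.8% of all windows. The canonical FOXO motif GTAAACA was in 3.17% of all windows, the glucocorticoid hexamer AGAACA in 16.1% and the telomere repeat unit TTAGGG in 9.32%, and none of these 3 was in the windows of the 9 genes. A match describes the letters of the window only. The 4 windows with a match are shown because they carry the hormone response motifs of the pathway, 5′ to 3′ on the strand of the gene, with the matching letters in capitals, which for G6pc, Irs2 and Pck1 are the reverse complement of the motif as spelled.
G6pc, chr11:101367466-101367715, plus strand: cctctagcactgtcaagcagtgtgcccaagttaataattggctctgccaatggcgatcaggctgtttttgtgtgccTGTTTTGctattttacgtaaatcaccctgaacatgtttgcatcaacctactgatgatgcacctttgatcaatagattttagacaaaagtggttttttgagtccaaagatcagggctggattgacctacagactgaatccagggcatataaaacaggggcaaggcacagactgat
Igfbp1, chr11:7197537-7197786, plus strand: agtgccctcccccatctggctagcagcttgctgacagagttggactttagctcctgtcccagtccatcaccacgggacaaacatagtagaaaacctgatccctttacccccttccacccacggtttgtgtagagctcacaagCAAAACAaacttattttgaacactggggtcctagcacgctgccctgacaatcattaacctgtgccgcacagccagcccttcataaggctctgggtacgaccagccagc
Irs2, chr8:11008930-11009179, minus strand: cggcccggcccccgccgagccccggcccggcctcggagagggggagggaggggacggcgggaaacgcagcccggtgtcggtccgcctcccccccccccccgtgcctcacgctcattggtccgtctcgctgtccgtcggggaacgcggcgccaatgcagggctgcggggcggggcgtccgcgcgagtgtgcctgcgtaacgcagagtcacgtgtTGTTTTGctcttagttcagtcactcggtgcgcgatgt
Pck1, chr2:173152823-173153072, plus strand: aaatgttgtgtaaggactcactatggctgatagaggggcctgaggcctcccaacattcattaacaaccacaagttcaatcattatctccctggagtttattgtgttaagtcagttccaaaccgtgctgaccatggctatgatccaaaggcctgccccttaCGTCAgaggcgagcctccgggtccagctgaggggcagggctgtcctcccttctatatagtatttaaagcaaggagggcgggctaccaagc

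All 10 probes were well above background on 8 of 8 arrays, so each gene had a measured level in every liver, and none had to pass a filter through 1 genotype alone. Signals are given either as processed intensity, which the scanner software had corrected for background, or as log2 of that intensity minus the log2 of the 75th percentile of the array. The 75th percentile was 220 to 227 on Rap1-/- arrays and 179 to 209 on wild-type arrays. Between 50.04% and 65.3% of probes on an array were well above background, and correlations between arrays ran from 0.984 to 0.993. Terf2ip probe A_52_P381806 was not well above background on any Rap1-/- array and was at least 17.9-fold lower than in wild type (limma, adjusted p over all probes = 7.09e-06), while a second Terf2ip probe, A_55_P2094079, was higher by 1.20 on the log2 scale without passing the threshold (adjusted p over all probes = 0.127). Of 10 hepatocyte markers 9 were tested, of which 2 had a difference above 0 and 7 below. The log2 of their summed signal, in which the brightest markers weigh most, was 12.99 to 13.07 in Rap1-/- livers and 13.1 to 13.3 in wild-type livers. Of 7 adipocyte markers, Adipoq, Plin1, Cfd, Lep, Retn and Cidea did not reach the level needed for testing, whereas Aqp7 was well above background on all arrays, with a log2 fold change of -0.034. In whole liver, fewer cells of a type and less RNA per cell cannot be told apart.

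None of the 9 genes passed the test between genotypes. Across 14066 genes tested with limma, 2 genes (0.0142%) passed an adjusted p under 0.05, Chst4 and Zfhx3, both on chromosome 8 and lower in Rap1-/- liver, and 0 of the 9 did. Zfhx3, a zinc finger homeobox gene, had a log2 fold change of -1.21 (SE 0.13, adjusted p = 0.0483) and was named after its values were seen. Of the 31069 probes, 2 passed (0.00644%) and 0 of the 10 did. At an unadjusted p under 0.05 the counts were 894 genes (6.36%) and 0 of the 9. Values of the 2 genotypes did not overlap for 606 genes (4.31%) and overlapped for all 9. The log2 fold change (Rap1-/- minus wild type) was above 0 for 5 of the 9 and below 0 for 4, with a median of 0.11, and across all genes tested it was above 0 for 56.1%, with a median of 0.02. Adjusted p values of the 9 ran from 0.881 to 0.996, and exact two-sided permutation tests over the 70 ways to part the 8 arrays gave p from 0.371 to 1. The smallest p this design allows in that test is 0.0286.

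**Figure D1:**
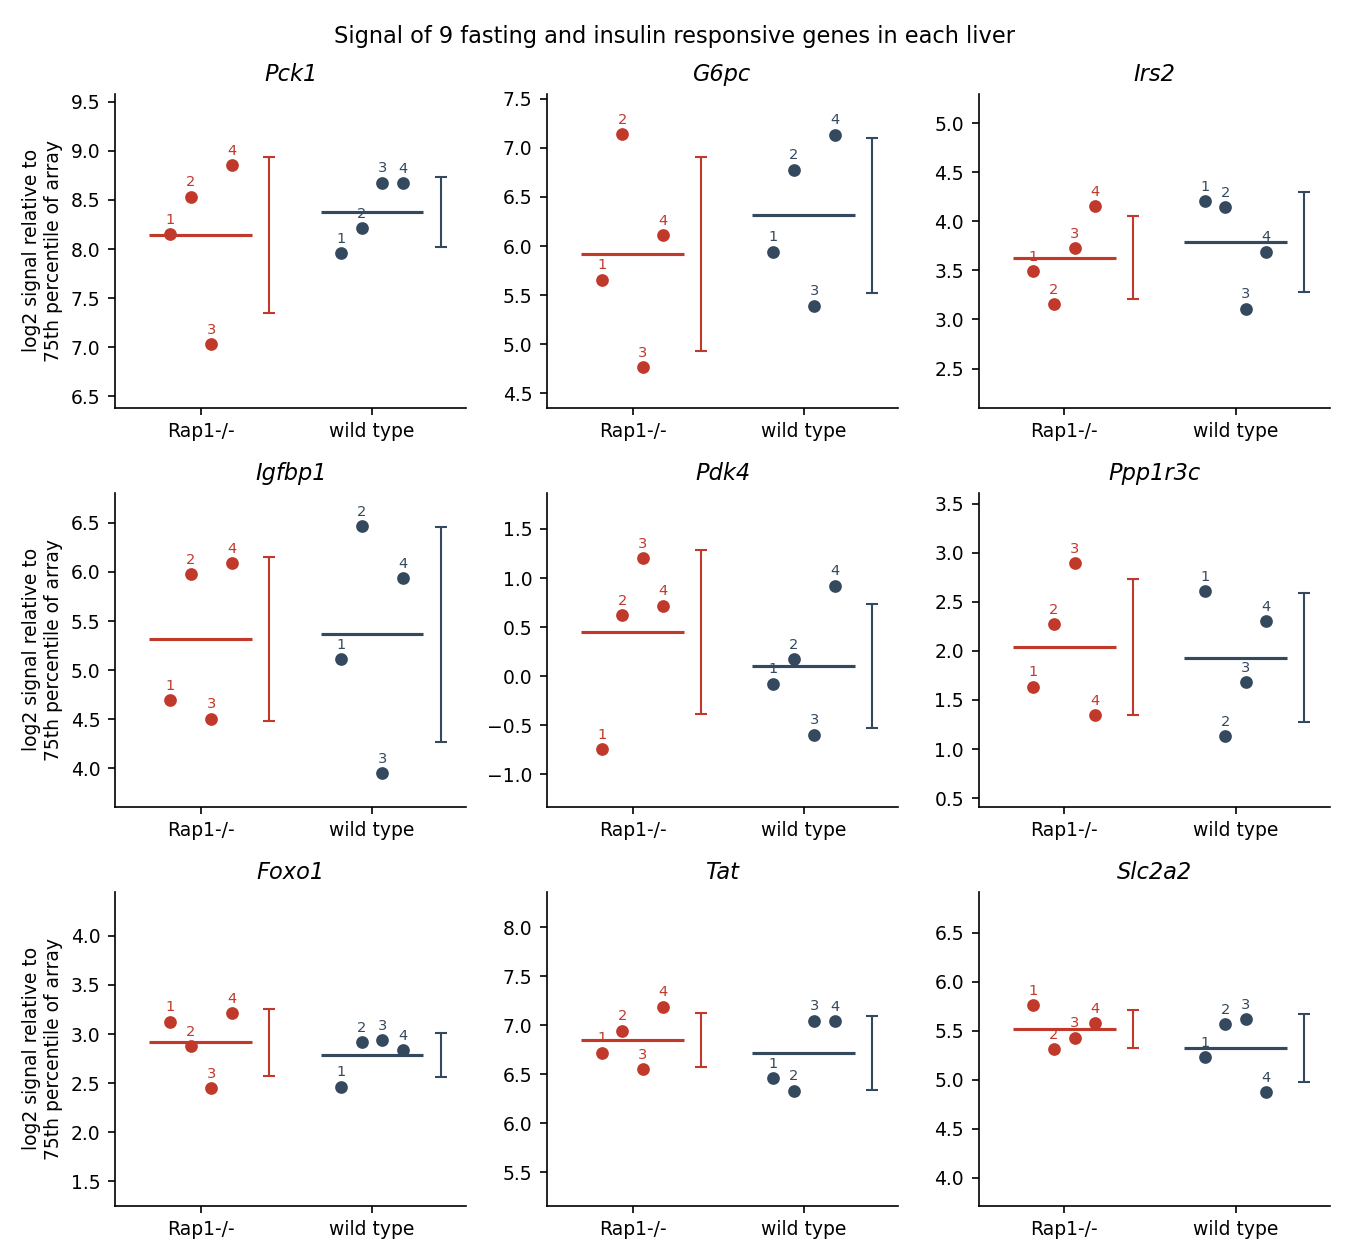
Log2 signal relative to the 75th percentile of the array for the 9 genes in each liver, with Rap1-/- left and wild type right in each panel. Points carry the replicate number, horizontal lines are group means, bars are 1 SD (n = 4), and every panel spans the same log2 range. The genotypes overlapped for all 9 genes, and replicates 2 and 4 lay above replicates 1 and 3 for G6pc and Igfbp1 in both genotypes.

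Pck1 encodes cytosolic phosphoenolpyruvate carboxykinase, which commits oxaloacetate to glucose synthesis. Its processed signal was 62609, 82193, 28700 and 105129 in Rap1-/- replicates 1 to 4, against 44426, 57426, 84402 and 85289 in wild-type replicates 1 to 4. The highest and the lowest liver of all 8 were both Rap1-/-, replicates 4 and 3, a 3.55-fold range within 1 genotype after scaling, against a 1.65-fold range in wild type. On the log2 scale Pck1 averaged 8.14 ± 0.80 in Rap1-/- liver and 8.38 ± 0.36 in wild-type liver (SD, n = 4 each), a difference of -0.24 (SE 0.37, adjusted p = 0.931). The 95% confidence interval ran from 2.10-fold lower to 1.52-fold higher in Rap1-/- liver. The difference turned to 0.14 without Rap1-/- replicate 3.

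G6pc encodes the catalytic subunit of glucose-6-phosphatase, which releases free glucose from the hepatocyte. Its processed signal was 11088, 31313, 5985 and 15698 in Rap1-/- replicates 1 to 4, against 11007, 21234, 8682 and 29418 in wild-type replicates 1 to 4. Replicates 2 and 4 exceeded replicates 1 and 3 in both genotypes. After scaling, the range was 5.18-fold among Rap1-/- livers and 3.34-fold among wild-type livers. On the log2 scale G6pc averaged 5.92 ± 0.99 in Rap1-/- liver and 6.31 ± 0.79 in wild-type liver (SD, n = 4 each), a difference of -0.39 (SE 0.53, adjusted p = 0.917). The interval, wide beside most of the other genes, ran from 3.02-fold lower to 1.75-fold higher in Rap1-/- liver.

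Tat encodes tyrosine aminotransferase, which starts the breakdown of tyrosine and is a classical glucocorticoid and glucagon target in liver. Its log2 level was 6.72, 6.95, 6.55 and 7.19 in Rap1-/- replicates 1 to 4, against 6.46, 6.33, 7.05 and 7.04 in wild-type replicates 1 to 4. The whole range over 8 livers was 1.81-fold. Tat differed by 0.13 (SE 0.21, adjusted p = 0.932), with an interval of -0.34 to 0.60 on the log2 scale. Tat lies on chromosome 8 beside Chst4, a sulfotransferase gene and 1 of the 2 genes that passed the threshold. In the order of the 749 tested genes of that chromosome, Tat was 1 place from Chst4 and 30 places from Terf2ip. Chst4 was not well above background on any Rap1-/- array and was at least 2.45-fold lower than in wild type (adjusted p = 0.00462), whereas Tat was well above background in all livers and its genotypes overlapped.

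Irs2 encodes insulin receptor substrate 2, which passes the insulin signal to phosphoinositide 3-kinase and is itself raised when insulin falls. Its log2 level was 3.49, 3.16, 3.72 and 4.15 in Rap1-/- replicates 1 to 4, against 4.20, 4.15, 3.11 and 3.69 in wild-type replicates 1 to 4. The genotypes overlapped, with the lowest liver (replicate 3) and the highest (replicate 1) both wild type. Irs2 differed by -0.16 (SE 0.28, adjusted p = 0.943), with an interval of -0.80 to 0.49. On slide 1, which held replicates 1 and 2 of each genotype, both Rap1-/- livers lay below both wild-type livers, a difference of -0.85 (adjusted p = 0.962). On slide 2, with replicates 3 and 4, both Rap1-/- livers lay above both wild-type livers, a difference of 0.54 (adjusted p = 0.999).

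Foxo1, the transcription factor that insulin holds out of the nucleus, was read by probes A_51_P138044 and A_52_P453884. The first gave a log2 level of 3.12, 2.88, 2.45 and 3.21 in Rap1-/- replicates 1 to 4, against 2.46, 2.92, 2.94 and 2.84 in wild-type replicates 1 to 4. The second gave 2.01, 2.10, 1.51 and 2.24 in Rap1-/- replicates 1 to 4, against 1.47, 2.01, 2.00 and 1.97 in wild-type replicates 1 to 4. Both probes placed Rap1-/- replicate 4 highest and put Rap1-/- replicate 3 and wild-type replicate 1 lowest. The difference was 0.13 (SE 0.19, adjusted p = 0.925) with the first probe and 0.10 (SE 0.19, adjusted p over all probes = 0.944) with the second. Arrays measure the transcript, and where the FOXO1 protein was located is not known from them.

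Igfbp1 encodes a secreted protein that binds insulin-like growth factors and is among the transcripts most quickly lowered by insulin. Its processed signal was 5702, 13971, 4989 and 15480 in Rap1-/- replicates 1 to 4, against 6173, 17141, 3195 and 12820 in wild-type replicates 1 to 4. As for G6pc, replicates 2 and 4 were high and replicates 1 and 3 were low in both genotypes. On the log2 scale Igfbp1 averaged 5.32 ± 0.83 in Rap1-/- liver and 5.37 ± 1.10 in wild-type liver (SD, n = 4 each), a difference of -0.05 (SE 0.57, adjusted p = 0.996). Wild-type livers alone spanned 5.72-fold, and the interval of the difference ran from 2.55-fold lower to 2.39-fold higher in Rap1-/- liver.

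Pdk4 encodes pyruvate dehydrogenase kinase 4, which spares pyruvate from oxidation when fat is the fuel. Its log2 level was -0.74, 0.62, 1.20 and 0.72 in Rap1-/- replicates 1 to 4, against -0.08, 0.17, -0.60 and 0.92 in wild-type replicates 1 to 4. Rap1-/- livers held both the highest value (replicate 3) and the lowest (replicate 1). The difference of 0.34 (SE 0.44, adjusted p = 0.911) had an interval of -0.65 to 1.34. Without Rap1-/- replicate 1 it was 0.74, and it did not pass then either.

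Ppp1r3c encodes a glycogen-targeting subunit of protein phosphatase 1, which brings the phosphatase to glycogen and favours glycogen synthesis. Its log2 level was 1.64, 2.27, 2.90 and 1.35 in Rap1-/- replicates 1 to 4, against 2.61, 1.13, 1.68 and 2.30 in wild-type replicates 1 to 4. Livers high for Ppp1r3c were replicates 2 and 3 in Rap1-/- and replicates 1 and 4 in wild type, another set than for G6pc. The difference was 0.11 (SE 0.40, adjusted p = 0.985), with an interval of -0.80 to 1.02. Slc2a2 encodes GLUT2, the transporter that carries glucose across the hepatocyte membrane in both directions. Its log2 level was 5.76, 5.31, 5.43 and 5.58 in Rap1-/- replicates 1 to 4, against 5.23, 5.57, 5.62 and 4.87 in wild-type replicates 1 to 4. Slc2a2 varied least between livers of 1 genotype among the 9 genes, and its difference of 0.20 (SE 0.18, adjusted p = 0.881) had an interval of -0.21 to 0.61.

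**Figure D2:**
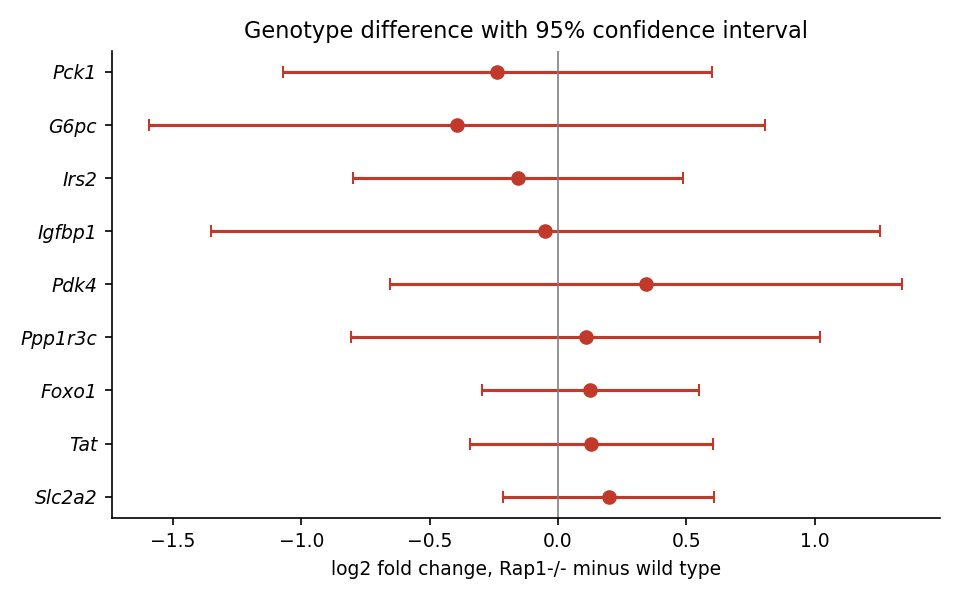
Log2 fold change, Rap1-/- minus wild type, for the 9 genes on the horizontal axis, with the 95% confidence interval from limma (n = 4 per genotype). Every interval crossed 0, and the widest were those of Igfbp1 (-1.35 to 1.25) and G6pc (-1.59 to 0.81).

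The 8 arrays came from 2 slides, each with 2 livers of either genotype, and the difference was therefore also taken within each slide. On slide 1 it was 0.26 for Pck1, 0.038 for G6pc, 0.44 for Tat, 0.31 for Foxo1, -0.45 for Igfbp1, -0.11 for Pdk4, 0.09 for Ppp1r3c and 0.14 for Slc2a2. On slide 2 it was -0.73 for Pck1, -0.82 for G6pc, -0.18 for Tat, -0.058 for Foxo1, 0.35 for Igfbp1, 0.80 for Pdk4, 0.13 for Ppp1r3c and 0.26 for Slc2a2. Of the 9 genes, Ppp1r3c and Slc2a2 alone kept the direction of their difference on both slides. On each slide wild-type arrays took positions 1 and 2 and Rap1-/- arrays positions 3 and 4, so array position and genotype cannot be told apart.

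The 9 genes varied widely between livers of the same genotype. The SD within genotype was above the median of all tested genes (0.21 on the log2 scale) for 9 of the 9, and 5 of the 9 were in the top 10% (above 0.48). Igfbp1 had an SD of 0.97 (percentile 99.0), G6pc 0.89 (98.5), Pdk4 0.74 (97.3), Ppp1r3c 0.67 (96.4) and Pck1 0.62 (94.97). Irs2 followed with 0.47 (89.1), then Tat with 0.33 (76.3), Foxo1 with 0.29 (69.6) and Slc2a2 with 0.28 (68.0).

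**Figure D3:**
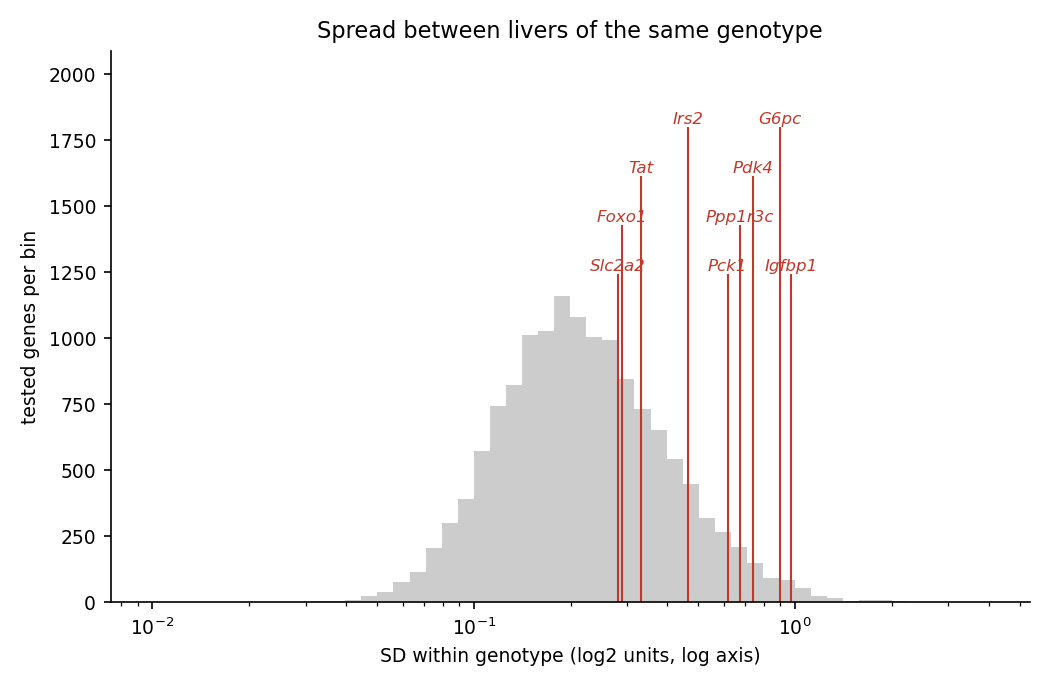
Histogram of the SD within genotype (horizontal log axis, log2 units) over the 14066 tested genes, with the number of genes per bin on the vertical axis. Vertical lines mark the 9 genes, of which Igfbp1 (0.97) and G6pc (0.89) lie in the far right tail and Slc2a2 (0.28) lies nearest the median of 0.21.

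Whether the 9 genes ordered the livers alike was examined over all 36 pairs of genes, across the 8 livers. Pearson's r was above 0 for 18 pairs and below 0 for 18, and 0 pairs passed an adjusted p under 0.05 in exact permutation tests over all pairings, against 4 at an unadjusted p under 0.05. G6pc and Igfbp1 had the highest r of all pairs, with r = 0.83 and rho = 0.79 (exact permutation p = 0.0153 and 0.0279, adjusted p = 0.275 and 0.331). The r was 0.84 without the 2 livers farthest from the median of G6pc (Rap1-/- replicates 2 and 3), and between 0.82 and 0.88 on leaving out each liver in turn. Igfbp1 itself left a gap between 5.11 and 5.94, with replicates 2 and 4 of both genotypes above it. Ppp1r3c and Foxo1 had the lowest, with r = -0.84 and rho = -0.86 (exact permutation p = 0.00853 and 0.0107, adjusted p = 0.275 and 0.277), and r = -0.92 without Rap1-/- replicate 3 and wild-type replicate 2. With no scaling between arrays, however, r for that pair was -0.56 (exact permutation p = 0.148). Pck1 and Tat had r = 0.71 and rho = 0.83 (exact permutation p = 0.0308 and 0.0154, adjusted p = 0.281 and 0.277), and r = 0.87 without Rap1-/- replicates 3 and 4. Pck1 and Foxo1 had r = 0.74 and rho = 0.67 (exact permutation p = 0.0312 and 0.0831, adjusted p = 0.281 and 0.598), which rested on the same 2 livers, since r was 0.36 without them. The 2 gluconeogenic enzymes, Pck1 and G6pc, had r = 0.61 and rho = 0.38 (exact permutation p = 0.102 and 0.360, adjusted p = 0.627 and 0.810), and r = 0.28 without Rap1-/- replicates 3 and 4. A slide holds 4 livers, too few for a correlation within it.

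**Figure D4:**
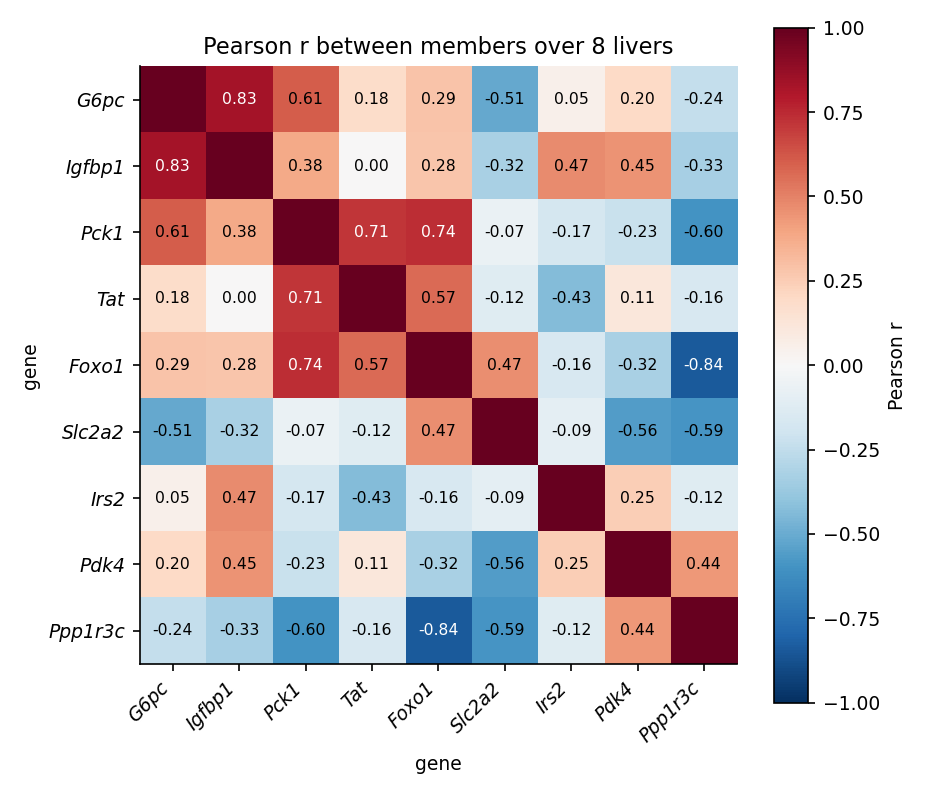
Pearson r between each pair of the 9 genes across 8 livers, with genes on both axes and colour running from blue (-1) to red (1). G6pc with Igfbp1 (0.83) and Foxo1 with Ppp1r3c (-0.84) are the extremes, and 0 of the 36 pairs passed after adjustment.

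To place the livers on a range from fed to fasted, each gene was taken as its deviation from its mean over the 8 livers. The mean deviation of the 6 genes that fasting raises (Pck1, G6pc, Igfbp1, Irs2, Pdk4 and Tat) was -0.42, 0.31, -0.45 and 0.44 in Rap1-/- replicates 1 to 4, against -0.15, 0.27, -0.49 and 0.48 in wild-type replicates 1 to 4. Replicates 2 and 4 of each genotype were thus above the mean of the 8 livers by these 6 genes. Replicates 1 and 3 of each genotype were below it, so either side held 2 livers of each genotype. The sides are relative to these 8 livers, whose feeding state is not known, and do not tell which livers were fed or fasted. On both slides replicates 2 and 4 lay at array positions 2 (wild type) and 4 (Rap1-/-), and replicates 1 and 3 at positions 1 and 3, and the part of position in this order was not tested. The separation was not carried by all 6 genes. In wild-type replicate 2, G6pc, Igfbp1 and Irs2 were the 3 of 6 genes above their mean, and Tat was the lowest of all 8 livers. Rap1-/- replicates 2 and 4 and wild-type replicate 4 had 5 of 6 above. Among the livers below the mean, Rap1-/- replicates 1 and 3 had 0 and 2 of 6 above, and wild-type replicates 1 and 3 had 1 and 2. Pck1 and Tat were above in wild-type replicate 3, and Pdk4 was highest in Rap1-/- replicate 3. Deviations were not scaled to each gene's spread, so G6pc and Igfbp1 weighed most in the mean.

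A list of 20 fasting-raised genes of fat oxidation and ketone synthesis, which holds none of the 9, had mean deviations of -0.05, 0.26, -0.14 and 0.20 in Rap1-/- replicates 1 to 4, against -0.37, 0.0049 and -0.35 in wild-type replicates 1 to 3 and 0.45 in wild-type replicate 4. Replicates 2 and 4 again stood above replicates 1 and 3 in both genotypes. Of the 20 genes, 11, 13, 8 and 15 were above their own mean in Rap1-/- replicates 1 to 4. In wild-type replicates 1 to 4 these counts were 3, 12, 5 and 17, so Rap1-/- replicate 1 and wild-type replicate 2 were close. From that list, Angptl4, Fgf21 and Acot1 are given in full, chosen after their values were seen. Angptl4, a secreted inhibitor of lipoprotein lipase and a PPARα target, was at 5.68, 6.77, 5.07 and 6.30 in Rap1-/- replicates 1 to 4, against 5.72, 6.35, 5.70 and 6.76 in wild-type replicates 1 to 4. Fgf21, a fasting hormone of the liver, was at -2.37, 0.33, -2.33 and -0.99 in Rap1-/- replicates 1 to 4, against -1.67, -0.76, -2.45 and -0.24 in wild-type replicates 1 to 4. Acot1, a cytosolic acyl-CoA thioesterase, was at 2.53, 4.03, 2.97 and 4.09 in Rap1-/- replicates 1 to 4, against 2.43, 3.33, 2.29 and 4.92 in wild-type replicates 1 to 4. For all 3 genes, replicates 2 and 4 of both genotypes lay above replicates 1 and 3 of both.

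Genes that feeding raises did not give the mirror image of that order. A list of 20 lipogenic and glycolytic genes had mean deviations of -0.05, -0.24, -0.05 and 0.48 in Rap1-/- replicates 1 to 4, against -0.40, 0.51, 0.18 and -0.42 in wild-type replicates 1 to 4. Rap1-/- replicate 4 and wild-type replicate 2 were thus high for both the fasting-raised members and the feeding-raised list, whereas wild-type replicate 1 was low for both. Thrsp, a lipogenic factor chosen after its values were seen, was at 7.40, 6.34, 6.21 and 7.99 in Rap1-/- replicates 1 to 4, against 5.50, 7.82, 7.51 and 5.88 in wild-type replicates 1 to 4. The fasting-raised members and the feeding-raised list therefore did not order the livers in opposite ways.

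Circadian clock genes differed widely between livers of the same genotype. Arntl, which encodes the clock activator BMAL1, was at -3.60, 0.07, -0.82 and -3.11 in Rap1-/- replicates 1 to 4, against -1.48, -3.02, -3.77 and -1.37 in wild-type replicates 1 to 4. The value of Rap1-/- replicate 1 lay below the lowest signal well above background on its array (processed intensity 20.4). It is read as low, not as a measured level. Dbp, a clock output factor that peaks in another phase than Arntl, was at 7.10, 4.49, 6.14 and 6.90 in Rap1-/- replicates 1 to 4, against 6.25, 6.84, 7.28 and 5.94 in wild-type replicates 1 to 4. Both genes were chosen after their values were seen. Livers fell into a high and a low set for Arntl, with 2 of each genotype in either, so no correlation is given. The 4 livers with high Arntl were Rap1-/- replicates 2 and 3 and wild-type replicates 1 and 4. The same 4 livers had the 4 highest levels of Ppp1r3c, the 4 lowest levels of Slc2a2 and the 4 lowest levels of Dbp. They were also the 4 lowest by Foxo1 probe A_51_P138044, but not by Foxo1 probe A_52_P453884, on which Rap1-/- replicate 2 was at 2.10, below Rap1-/- replicate 4 alone. With no scaling or the deposited value table, Ppp1r3c kept its 4 highest livers. For Slc2a2 with no scaling, wild-type replicate 2 replaced Rap1-/- replicate 3 among the 4 lowest. By probe A_51_P138044, wild-type replicate 2 replaced Rap1-/- replicate 2 with no scaling, and wild-type replicate 4 with the value table. G6pc and Igfbp1 did not follow the order of Arntl, since their 4 highest livers were replicates 2 and 4 of both genotypes. For G6pc with the value table, however, wild-type replicate 1 (13.98) stood just above Rap1-/- replicate 4 (13.90). The part of clock phase in the levels of the 9 genes was not tested.

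**Figure D5:**
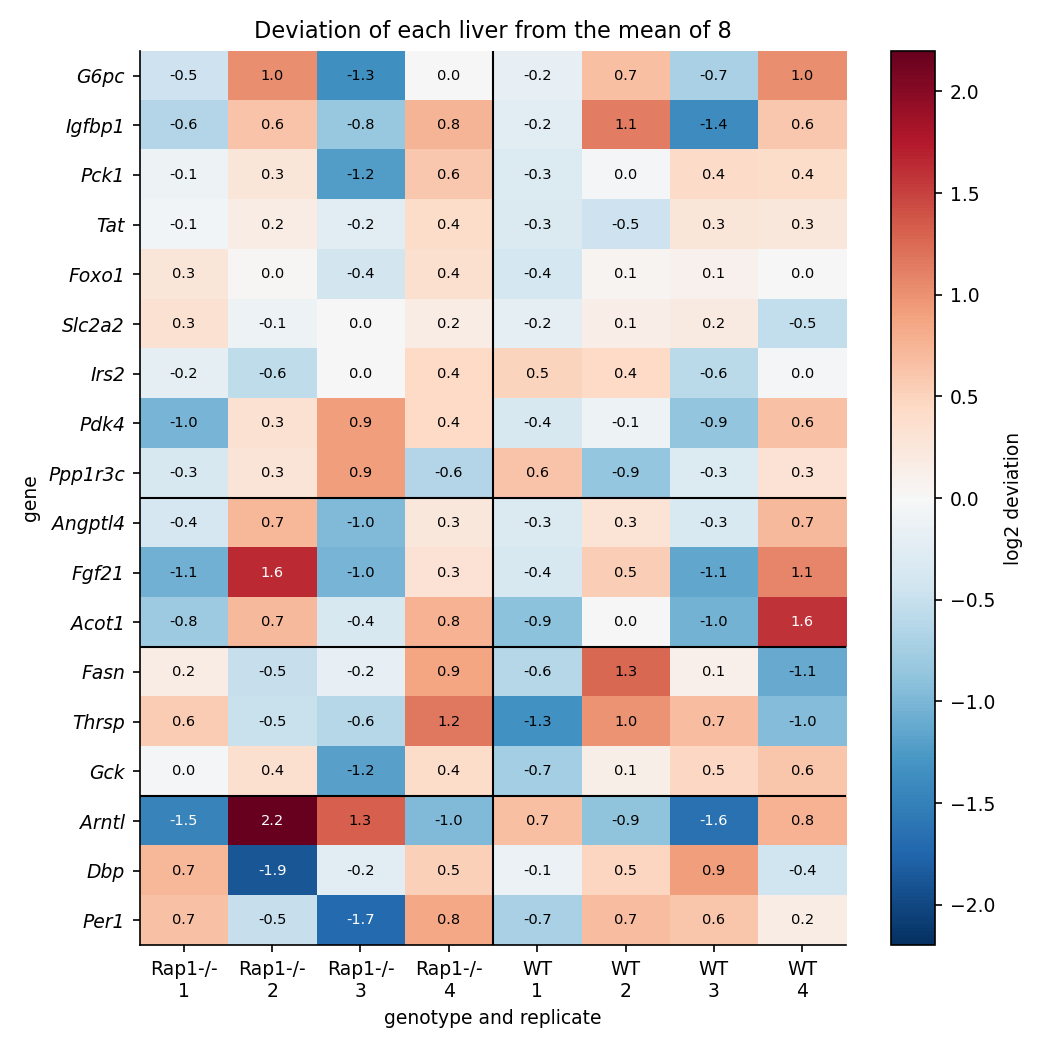
Deviation of each liver from the mean of 8 (log2 units, colour and printed value) for the 9 genes (top block), 3 fasting-raised lipid genes, 3 feeding-raised genes and 3 clock genes (lower blocks), with Rap1-/- livers left and wild-type livers right. G6pc, Igfbp1, Angptl4, Fgf21 and Acot1 are higher in replicates 2 and 4 than in replicates 1 and 3 of both genotypes, whereas Thrsp and Arntl follow other orders. Angptl4, Fgf21 and Acot1 were chosen from a list of 20 genes after their values were seen, so they do not stand for that list.

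For each of the 9 genes, the genes most alike across the 8 livers were found by Pearson's r among 14061 other genes, as a description over 8 livers that share their arrays. Nearest to G6pc were Pde12 (0.98), a mitochondrial phosphodiesterase gene, and Angptl4 (0.97). Nearest to Igfbp1 were Rnmt (0.97), an mRNA cap methyltransferase gene, and Cops7b (0.97). Pck1 was most like Gxylt2 (0.97) and Kcna4 (0.97), and Tat most like Lrit2 (0.97) and Nt5c2 (0.96). Irs2 was most like Nfkbid (0.92) and Mcl1 (0.90), the lowest likeness found for any of the 9. Foxo1 was most like Naa50 (0.97) and Naa60 (0.97), Pdk4 most like Rasgrp3 (0.96) and Fcgr3 (0.96), Ppp1r3c most like Coq8a (0.96) and Chkb (0.96), and Slc2a2 most like Sqor (0.98) and Slc46a3 (0.97). None of these genes passed the threshold between genotypes.

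The wider pathways around the 9 genes were described by counts, since 0 of their genes passed an adjusted p under 0.05. Of 32 tested enzymes of gluconeogenesis and glycolysis other than Pck1 and G6pc, 18 had a log2 fold change above 0 and 14 below, with a median of 0.01. Mdh1, which moves reducing power for gluconeogenesis, had the smallest p of that list with 0.23 (adjusted p = 0.783). Of 20 genes of glycogen metabolism, 8 were above 0 and 12 below, with a median of -0.01. Phkb, a regulatory subunit of phosphorylase kinase, and Pgm2, a phosphoglucomutase gene, were the genes of that list whose genotypes did not overlap, with differences of 0.30 and 0.34 (adjusted p = 0.770 for both). Phkb was at -1.28, -1.19, -1.33 and -1.32 in Rap1-/- replicates 1 to 4, against -1.60, -1.70, -1.39 and -1.64 in wild-type replicates 1 to 4.

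Of 32 genes of insulin and glucagon signalling, 13 were above 0 and 19 below, with a median of -0.03. Foxo3, a paralog of Foxo1, had the smallest p of the list with -0.33 (adjusted p = 0.770). Of 26 transcriptional regulators of gluconeogenesis, 7 were above 0 and 19 below, with a median of -0.06. Foxa2, a hepatocyte transcription factor, went against most of that list with a difference of 0.29 (limma, adjusted p = 0.811). The smallest adjusted p of the list was 0.789 and belonged to another gene. Of 21 tested paralogs of the 9 genes, 7 were above 0 and 14 below, with a median of -0.06. Igfbp6 had the widest difference named there, -1.47 (SE 0.61, adjusted p = 0.770), and its genotypes overlapped.

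The fasting-raised list of fat oxidation had 12 of 20 genes above 0, with a median of 0.03, and the feeding-raised list 13 of 20, with a median of 0.05. Cyp4a10, a PPARα-driven fatty acid hydroxylase, was at 6.12, 6.26, 6.25 and 6.33 in Rap1-/- replicates 1 to 4, against 4.90, 5.25, 4.41 and 6.79 in wild-type replicates 1 to 4, a difference of 0.90 (SE 0.43, adjusted p = 0.783). Its SD was 0.09 among Rap1-/- livers and 1.03 among wild-type livers. Of 14 glucocorticoid-raised genes 8 were above 0, with a median of 0.02. Of 20 genes of amino acid catabolism 19 were above 0 and 1 below, against 56.1% above 0 among all genes tested. Their median was 0.17 against 0.02 for all genes. The mean deviation of these 20 was 0.30, -0.08, 0.02 and 0.12 in Rap1-/- replicates 1 to 4. In wild-type replicates 1 to 4 it was -0.12, -0.29, 0.28 and -0.22, so the genotypes overlapped. Otc and Tdo2, of the urea cycle and of tryptophan breakdown, had the smallest p of that list, with differences of 0.30 (adjusted p = 0.780) and 0.39 (adjusted p = 0.783). Of 15 clock genes 5 were above 0 and 10 below, with a median of -0.16.

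Markers of other liver cells were read beside these lists, and their part in the values of the 9 genes was not tested. Kupffer cell markers were below 0 for 7 of 7 tested genes. The log2 of their summed signal was 7.17 to 7.92 in Rap1-/- livers and 7.53 to 7.99 in wild-type livers. Neutrophil markers were below 0 for the 4 tested of 7 listed (Ly6g, Mpo and Ngp were not tested). The log2 of the summed signal of these 4 was 2.63 to 3.30 in Rap1-/- livers and 2.69 to 4.11 in wild-type livers. Endothelial markers were above 0 for 4 of 8, stellate cell and fibroblast markers for 6 of 8, and T and NK cell markers for 1 of 6 tested. Cholangiocyte markers were above 0 for 4 of 6, and the log2 of their summed signal was 2.03 to 3.03 in Rap1-/- livers and 1.75 to 2.25 in wild-type livers. None of these markers passed an adjusted p under 0.05, and Alb, which encodes albumin, was lower by 0.21 without overlap (log2 fold change -0.21, adjusted p = 0.770).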

How the data were processed

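Liver RNA from 4 Rap1-/- and 4 wild-type mice was hybridized to single-colour Agilent arrays. Per the file headers, Feature Extraction 10.7.3.1 wrote each spot as an intensity in linear units, although the study's methods give a different version. Background had been taken off the deposited processed intensity, but arrays had not been brought to a common scale. A series table of log2 values was deposited as well, for which limma is the tool named in the submitters' processing notes. That table matched the scanner values after normexp (offset 50) and quantile normalization, with a median absolute difference of 0.00167 and 99.5% of values within 0.05, so its scale is log2 and it is not centred on genes. Foreground medians were used for normexp, because no mean signal was in the columns used.

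Of 62976 spots per array, 59305 were not controls. Flagged spots were left out, and repeated spots of a probe were averaged on the log2 scale. Symbols came from RefSeq accessions of GRCm38.p6 for 26056 of 55681 probes (46.8%). The arrays were annotated on another build, so the annotation gave names and gene order only, and the printed windows come from the RefSeq promoter table of GRCm38.p6.

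The log2 processed signal minus the 75th percentile of each array was fitted with limma 3.58.1 (lmFit and eBayes, R 4.3.3), without covariates, on 14066 genes that were well above background on at least 4 of 8 arrays, each by its brightest probe. P values were adjusted over all genes (Benjamini and Hochberg), or over all 31069 probes where a probe is named as such, and the threshold was 0.05. Where a probe was dim on all arrays of 1 genotype, the fold is a bound against the lowest signal well above background on each array. The procedure was tested on simulated data. The number of arrays limits the precision, and no spot was saturated. The labels call the arrays biological replicates, and nothing further is said of litters or cages.

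The 9 genes, the lists and the tests were chosen with earlier results of these data known. Named genes are the 9, the 2 most alike to each, up to 3 genes per list with the smallest p, Terf2ip and genes past the threshold. Genes named outside that rule are said to have been chosen after their values were seen. Alternatives were other scalings, filters, probe rules, variance models, blocks, single slides and leaving out each array.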

Additional observations from a re-analysis of the deposited data

Results flagged for a closer look

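One value stood far from the others of its group. For Foxo1 probe A_52_P453884, wild-type replicate 1 was lowest at 1.47, and its gap to the next wild-type liver was 0.932 of the range of the group, above the Dixon limit for 4 samples. Chance flags about 1 in 20 groups, and 1 of the 20 groups examined (10 probes in 2 genotypes) was flagged. The other Foxo1 probe, A_51_P138044, also had wild-type replicate 1 lowest, at 2.46, without passing the limit.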

How the results depend on the processing

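Under 22 alternatives for each of the 9 genes, 181 of 198 recomputed differences kept their direction and 17 changed sign. Of the 198, 0 passed, with adjusted p from 0.309 to 1.00. The other filters, the variance model and the blocks returned the same difference as the main fit, and the probe mean moved Foxo1 alone. Those alternatives could hardly change a sign, so the 181 is no measure of how stable the directions were. With no scaling between arrays, which moved the median of all genes to 0.20, Igfbp1 was 0.13 and Irs2 0.019. Within slide 1 the sign changed for Pck1 (0.26), G6pc (0.038) and Pdk4 (-0.11), and within slide 2 for Igfbp1 (0.35), Irs2 (0.54), Foxo1 (-0.058, second probe -0.11) and Tat (-0.18). These alternatives rest on 4 arrays each, and the cause was not tested. Leaving out 1 array at a time gave -0.47 to 0.14 for Pck1, -0.80 to -0.0092 for G6pc, -0.38 to 0.0022 for Irs2, -0.52 to 0.32 for Igfbp1, 0.09 to 0.74 for Pdk4, -0.18 to 0.34 for Ppp1r3c, 0.018 to 0.28 for Foxo1 (-0.031 to 0.25 for its second probe), 0.00072 to 0.24 for Tat and 0.048 to 0.30 for Slc2a2.

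Counts of the 9 genes and of pathway genes past the threshold were 0 in every alternative run, and 0 of 36 pairs passed with no scaling, with the value table or with genotype means removed, all chosen after seeing the data. The r of Ppp1r3c and Foxo1 was -0.56 with no scaling, -0.78 with the value table and -0.89 with genotype means removed. Over all genes, 2 passed, against 1 with no scaling, quantile normalization, no filter, a filter on all 8 arrays, slide as a block or slide 2 alone. On leaving out any array 1 passed, and 0 passed with normexp, the value table or slide 1 alone. Where 1 passed, it was Zfhx3 with the filter on all 8 arrays and Chst4 in each other case, so the call of Zfhx3 was borderline. Chst4, not well above background on any Rap1-/- array, could not enter the test under the filter on all 8 arrays. With the mean of a gene's probes or with trended and robust variance 3 passed. Terf2ip was added, as lower in the first and as higher in the second. Replicate numbers are shared by the genotypes, but over all tested genes same-numbered livers did not deviate together (r between -0.18 and 0.10), and the labels give the number no meaning. With the replicate block 0 genes and 0 of the 9 passed. For G6pc and Igfbp1, whose same-numbered livers did stand together, the block gave an SE of 0.23 and 0.20, against 0.53 and 0.57 without it. The highest liver stayed the same for 8 of 9 genes with no scaling or the value table. The labels give no feeding state, sex or hour of collection, and 4 arrays per genotype leave intervals as wide as those given above.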
